A study of Homo sapiens with 32 samples.

Results

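The fusion oncoprotein EWS::FLI1 drives Ewing sarcoma, and 10 genes long known to be activated by it were followed through all libraries: NR0B1, NKX2-2, STEAP1, STEAP2, CCND1, PRKCB, LIPI, PPP1R1A, GLI1 and BCL11B. They were chosen by name from the 28278 gene symbols of the count tables, and all 10 were also present, by Ensembl gene, in the knockdown table. RNA-seq had been performed on the Ewing sarcoma cell lines A673, SK-N-MC and A4573. In A673, 3 experiments compared knockout clones with 2 kinds of STAG2-proficient control: the parental line, and a WT clone carrying iCas9, a doxycycline-inducible Cas9 at the AAVS1 locus, from which every knockout clone was derived. Experiment 1 held 3 control and 2 STAG2ko libraries. Experiment 2 held 3 control, 3 STAG2ko, 3 EZH2ko and 3 SUZ12ko libraries. Experiment 3 held 2 control and 3 STAG1ko libraries. Experiment 4 compared 3 mock-transfected WT libraries with 3 libraries of A673 cells transfected with siRNA against STAG2 (siSTAG2). SK-N-MC with iCas9 (WT) was paired with its STAG2ko derivative, and A4573 (labelled WT, with iCas9 as its genotype), a line that lacks STAG2, was paired with a STAG2 KI derivative in which the gene had been repaired, with 1 library in each arm. Each knockout library comes from a clone. The A673 arms hold several clones, but in the isogenic pairs the history of the edited line cannot be told apart from its edit.

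EWS::FLI1 joins the transactivation part of EWSR1 to the ETS DNA-binding domain of FLI1. It binds repeats of the GGAA tetranucleotide, where it opens chromatin and creates enhancers, and it also acts at single GGAA motifs next to promoters. STAG1 and STAG2 are alternative subunits of cohesin, the ring complex that extrudes loops and brings enhancers to promoters, and EZH2 and SUZ12 are subunits of Polycomb repressive complex 2 (PRC2), which deposits H3K27me3. The 10 targets serve different roles. NR0B1 is an orphan nuclear receptor, NKX2-2 a homeodomain repressor and GLI1 the zinc finger effector of the Hedgehog pathway. BCL11B is a zinc finger repressor of transcription that acts in T cell and neural development. CCND1 is cyclin D1, which drives the G1 phase with CDK4 and CDK6. PRKCB is a protein kinase C, PPP1R1A an inhibitor of protein phosphatase 1, STEAP1 and STEAP2 are membrane proteins of the metalloreductase family, and LIPI is a membrane-bound phospholipase.

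To show the sequence that EWS::FLI1 recognizes at these loci, the reference genome (GRCh38) was searched within 100 kb of each annotated gene start (GENCODE 44) for clusters of more than 4 GGAA motifs on 1 strand with at most 5 bases between neighbours. One cluster is printed for each locus other than PRKCB, 5′ to 3′ on the strand that reads GGAA, with each GGAA in capitals. It is the cluster with most motifs, except at GLI1, where a longer one of 12 motifs lay 99104 bases from the start. These are reference sequences, and the length of the repeats in A673, SK-N-MC or A4573 was not measured.
NR0B1 upstream repeat: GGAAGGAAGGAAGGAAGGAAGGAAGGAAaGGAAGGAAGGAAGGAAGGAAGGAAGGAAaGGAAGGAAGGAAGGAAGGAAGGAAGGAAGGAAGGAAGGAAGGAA
NKX2-2 upstream repeat: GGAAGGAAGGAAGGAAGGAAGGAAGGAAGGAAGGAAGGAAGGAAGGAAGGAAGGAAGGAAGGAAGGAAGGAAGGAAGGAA
STEAP1 and STEAP2 repeat: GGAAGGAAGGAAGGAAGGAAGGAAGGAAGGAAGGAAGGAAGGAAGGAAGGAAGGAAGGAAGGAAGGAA
CCND1 upstream repeat: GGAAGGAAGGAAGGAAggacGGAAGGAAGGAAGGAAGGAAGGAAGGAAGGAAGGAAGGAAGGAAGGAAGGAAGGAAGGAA
LIPI upstream repeat: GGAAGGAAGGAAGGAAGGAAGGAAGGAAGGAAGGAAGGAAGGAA
PPP1R1A upstream repeat: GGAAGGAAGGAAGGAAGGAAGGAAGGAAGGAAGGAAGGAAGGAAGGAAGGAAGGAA
GLI1 intronic cluster: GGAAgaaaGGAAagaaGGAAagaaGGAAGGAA
BCL11B intronic cluster: GGAAggagGGAAgaGGAAGGAAGGAA

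The NR0B1 repeat holds 25 motifs at chrX:30310758-30310859 (minus strand), 1368 bases upstream of the gene start in intergenic sequence. The LIPI repeat holds 11 uninterrupted motifs at chr21:14213292-14213335 (minus strand) and lies 2337 bases upstream, also intergenic. The NKX2-2 repeat of 20 uninterrupted motifs, at chr20:21576284-21576363 (minus strand), lies 62220 bases upstream in an intron of LINC01727, and a second one of 10 motifs lies 41764 bases upstream. The STEAP repeat of 17 uninterrupted motifs, at chr7:90208414-90208481 (plus strand), falls in introns of both STEAP2 and the antisense gene STEAP2-AS1. It is 53958 bases downstream of the STEAP1 start and 40824 bases downstream of the STEAP2 start in GENCODE, but the nearer of the RefSeq STEAP2 starts (GRCh38.p14) is at chr7:90211740, and the end of the repeat is 3259 bases from it. The CCND1 repeat of 19 motifs, at chr11:69622135-69622214 (plus strand), is intergenic and 18942 bases upstream. The PPP1R1A repeat of 14 motifs, at chr12:54624970-54625025 (minus strand), is intergenic, 36311 bases upstream, and stands beside clusters of 10 and 5 motifs.

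The clusters printed for GLI1 and BCL11B, those nearest to their starts, hold 5 motifs each. The GLI1 cluster at chr12:57468440-57468471 (minus strand) is intronic, with no more than 2 motifs in direct succession, and the BCL11B cluster at chr14:99190602-99190627 (plus strand) is intronic, 81570 bases from the gene start. A cluster lay within 100 kb of all 10 starts, against 63.0% of the 20007 protein-coding gene starts, and within 5 kb of 2 of 10, against 4.53%. A cluster of at least 10 motifs lay within 100 kb of 9 of the 10, BCL11B being the exception, against 30.3% of all starts. The genes are known as EWS::FLI1 targets, so these shares describe the loci and are no test.

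**Figure D1:**
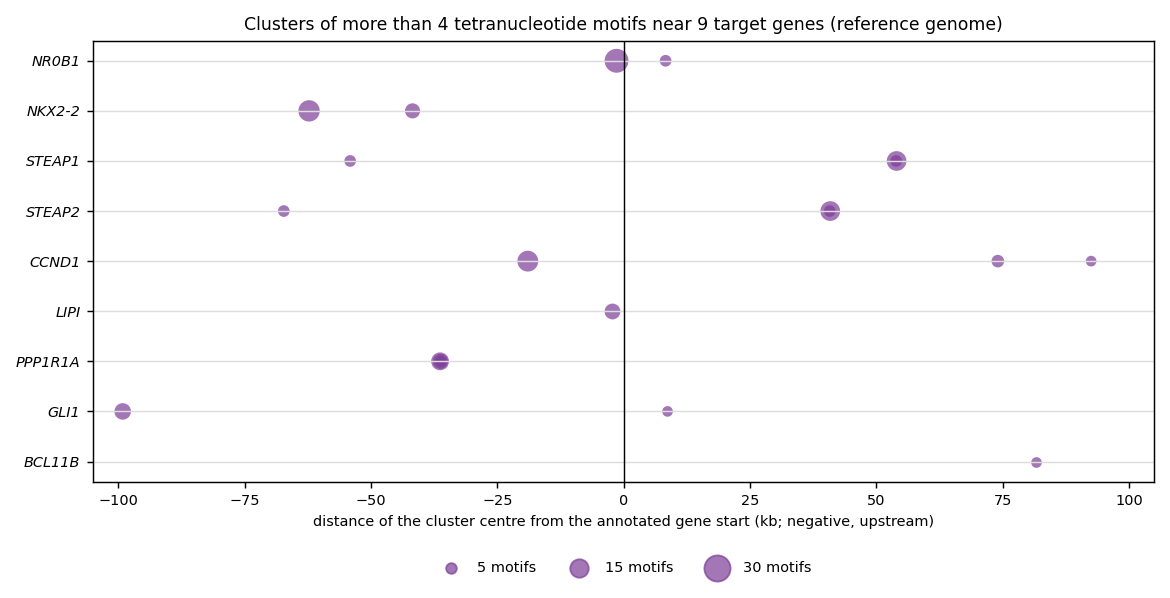
Position of GGAA clusters (more than 4 motifs) around 9 of the target genes (all but PRKCB); the x axis is the distance of the cluster centre from the annotated gene start in kb, in the direction of transcription, and the area of a dot grows with the number of motifs. NR0B1 and LIPI have a cluster within 5 kb of the start, and BCL11B has a single cluster of 5 motifs.

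The genes lie at chrX:30304206-30309390 (NR0B1), chr20:21511017-21514064 (NKX2-2), chr7:90154456-90164829 (STEAP1), chr7:90167590-90238137 (STEAP2), chr11:69641156-69654474 (CCND1), chr16:23835983-24220611 (PRKCB), chr21:14108813-14210955 (LIPI), chr12:54575387-54588659 (PPP1R1A), chr12:57459785-57472268 (GLI1) and chr14:99169287-99272197 (BCL11B). STEAP1, STEAP2, CCND1, PRKCB and GLI1 are on the plus strand and the others on the minus strand. The libraries did not keep strand, so reads from exons shared with a gene on the other strand cannot be separated: this concerns NKX2-2 (NKX2-2-AS1), CCND1 (LTO1), PPP1R1A (PDE1B) and GLI1 (ARHGAP9). STEAP1 also has a closely similar copy, STEAP1B, and its counts are uncertain to that extent.

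The A673 libraries held 15734628 to 20663679 counted reads, the SK-N-MC and A4573 libraries 29322507 to 32261248, and the knockdown libraries 6852340 to 8184632 recovered reads. Levels are given as CPM scaled by TMM over the 26 count libraries (normalised CPM). STAG2 mRNA was 42.4 to 184 normalised CPM in the 5 STAG2ko libraries and 256 to 361 in the 6 controls of experiments 1 and 2, EZH2 was 28.4 to 55.3 in EZH2ko against 172 to 194, and SUZ12 was 11.3 to 20.6 in SUZ12ko against 60.3 to 67.1. The library labelled STAG1ko 1 was the exception: its STAG1 level of 61.5 lay between the 57.8 and 69.6 of the controls, whereas the other two were at 15.1 and 33.3. FLI1 and EWSR1, whose reads include those of the fusion, passed the test in none of the 5 perturbations of A673, with log2 fold changes from -0.25 to 0.26 for FLI1. Of 5 Ewing sarcoma markers, 4 were detected in every line, and CD99 was listed at 0 in all count libraries although its deposited normalised values in the knockdown table were 3723 to 6707. Fibroblast markers (5 genes, summed) were at 171 to 350 normalised CPM in STAG2ko, 819 to 1828 in the controls of experiments 1 and 2, and 3050 to 3542 in STAG1ko against 1826 to 2186 in its controls. The genes of this list did not move together in STAG1ko. COL1A1 had 7987 to 17037 reads there against 1117 and 1601 in the controls, whereas LUM had 1 to 4 against 155 and 32. Epithelial markers (4 genes, summed) were at 676 to 965 in EZH2ko and 426 to 1243 in SUZ12ko against 363 to 420 in the controls of experiment 2. In STAG2ko they were at 97.97 to 214 in experiment 2, but in experiment 1 at 212 to 369 against 197 to 242 in controls. They were at 253 to 462 in STAG1ko against 150.5 to 186 in its controls, and CDH1 was at or near 0 in all of these arms. The leukocyte marker PTPRC had 99 reads in SK-N-MC WT and 1776 in SK-N-MC STAG2ko. These are all single lines in culture, and the part of those markers in the results was not tested. Bulk RNA cannot tell fewer expressing cells from less RNA per cell.

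In the 8 STAG2-proficient A673 libraries the targets spanned a wide range. CCND1 was the most abundant, with 1909, 2601 and 3592 normalised CPM as the lowest, median and highest value. Divided by exon length it stood at 549 normalised CPM per kb, followed by STEAP1 at 79.9, LIPI at 79.8, NR0B1 at 46.6, PRKCB at 33.2, NKX2-2 at 28.9, PPP1R1A at 24.8, STEAP2 at 17.1, BCL11B at 11.1 and GLI1 at 6.41. STEAP1 and LIPI were thus level, and GLI1 was the least expressed. The same genes were not equally steady among controls: the coefficient of variation was 12.6% for PPP1R1A, 20.9% to 33.6% for GLI1, CCND1, STEAP1, PRKCB, LIPI, NR0B1 and STEAP2, and 42.2% and 43.5% for BCL11B and NKX2-2. Much of this was between experiments. BCL11B was at 50.6, 54.3 and 52.1 in the controls of experiment 2, at 95.3 to 109 in experiment 1 and at 143 and 151 in experiment 3, and STEAP2 at 94.7 to 114, 139 to 160.3 and 204 to 237. Each arm was therefore set only against the controls of its own experiment.

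**Figure D2:**
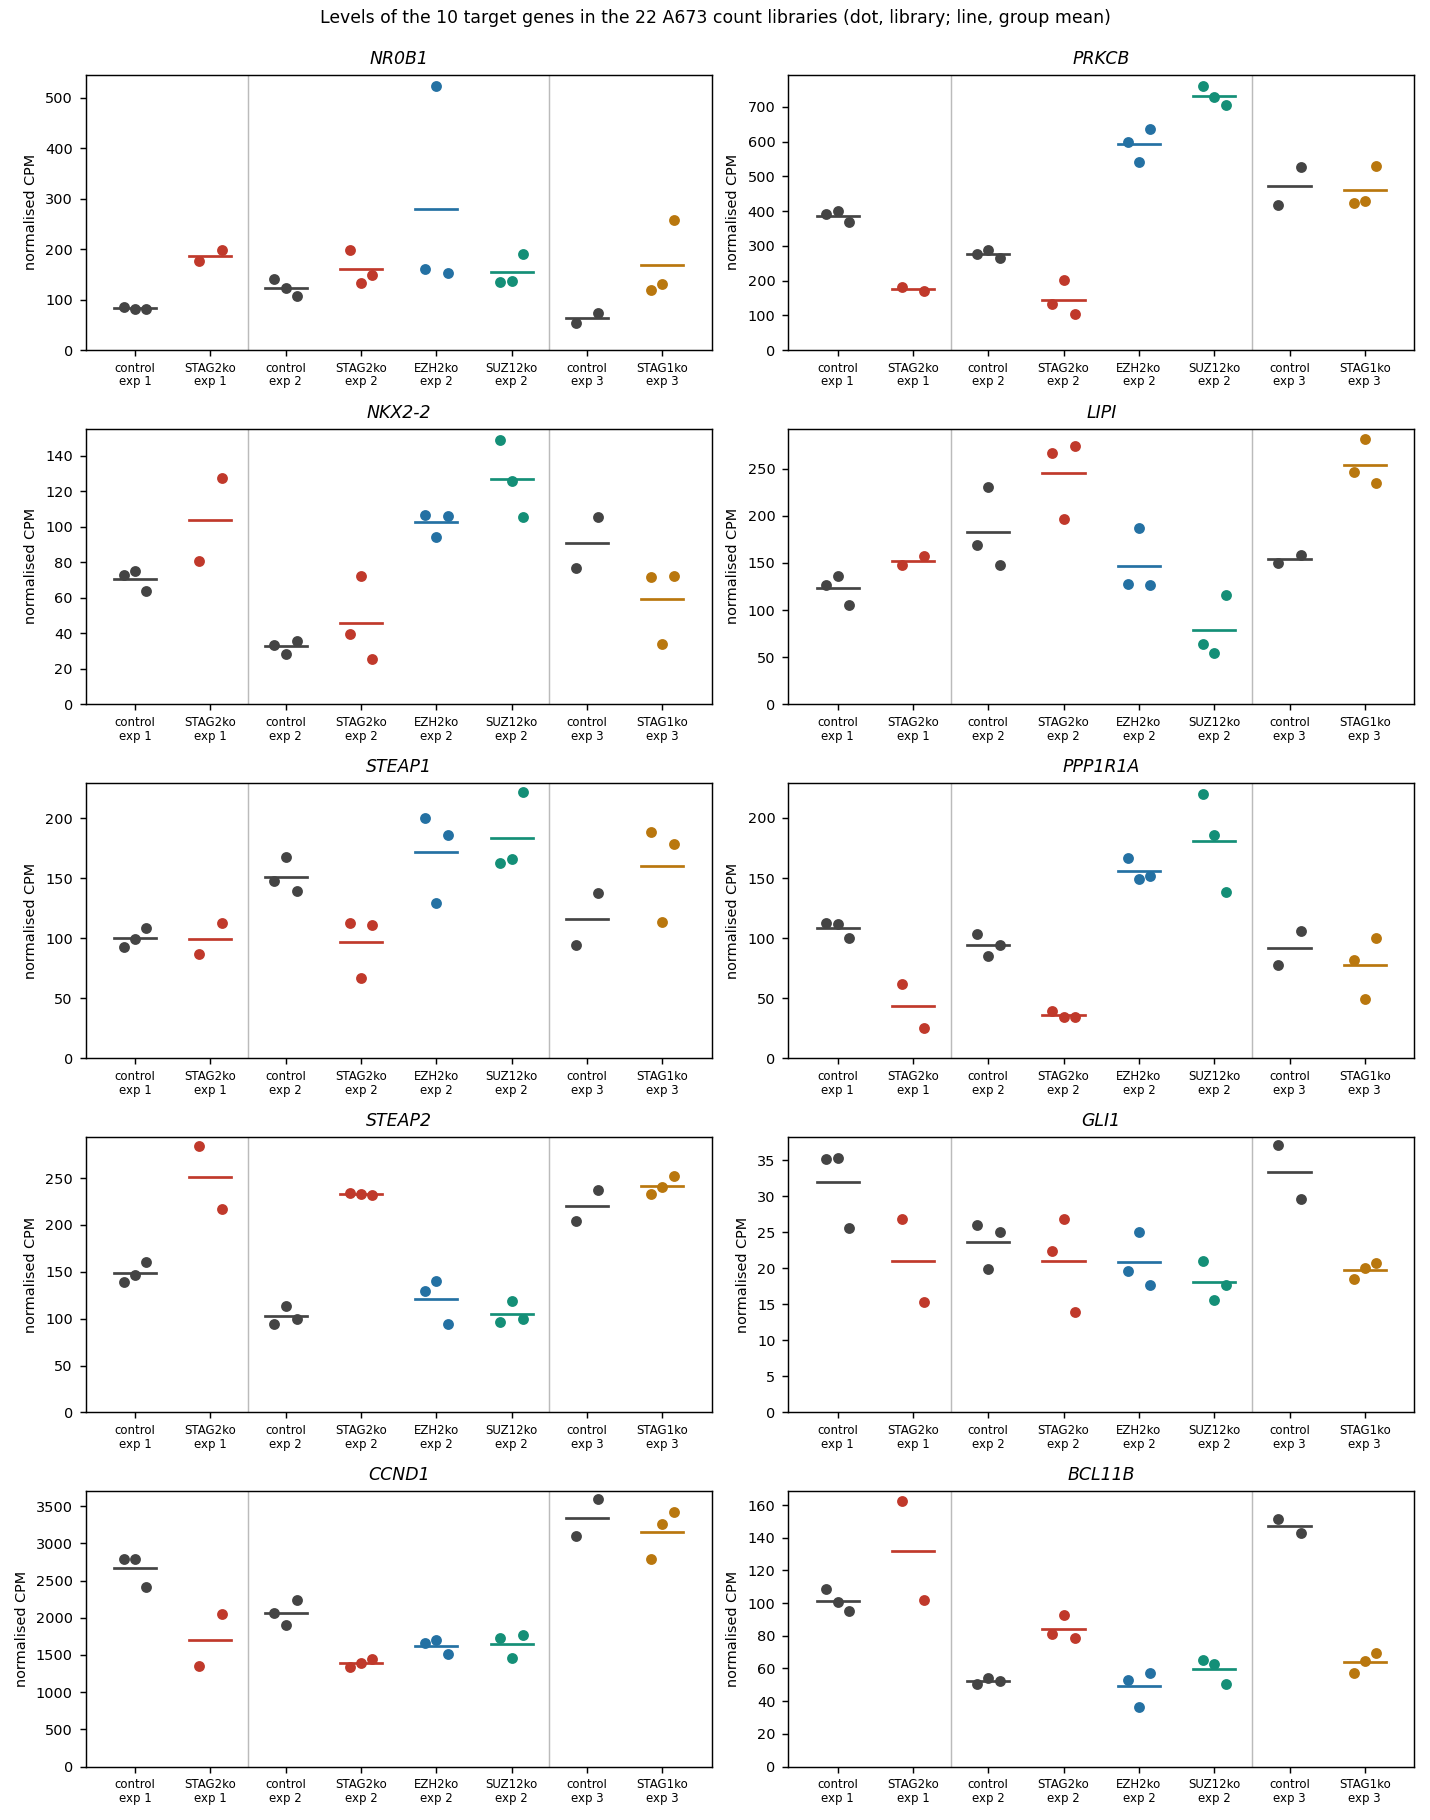
Normalised CPM (y axis, linear from 0) of each target gene in the 22 A673 count libraries, by arm and experiment (x axis); dots are libraries and lines are group means. PPP1R1A and PRKCB lie below their controls in STAG2ko and above them in EZH2ko and SUZ12ko, whereas control levels of BCL11B and STEAP2 differ between experiments.

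The question behind the STAG2ko clones is how loss of this cohesin subunit affects transcription in a cell driven by EWS::FLI1. The activated targets did not move together: STEAP2, NR0B1 and BCL11B rose, PPP1R1A, PRKCB and CCND1 fell, and NKX2-2, LIPI, GLI1 and STEAP1 did not pass the test. In edgeR's quasi-likelihood test over 13574 genes with the experiment as a term, 6.67% of all genes were called higher and 5.76% lower at an adjusted p under 0.05. The median log2 fold change was 0.05 over the 10 targets and 0.04 over all genes tested.

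The signalling genes PPP1R1A and PRKCB showed the clearest decreases. PPP1R1A was at 113, 112 and 100.2 normalised CPM in the controls of experiment 1 and at 61.6 and 25.6 in STAG2ko, and at 104, 85.2 and 94.5 against 39.0, 34.2 and 34.5 in experiment 2. All 5 knockout libraries lay below all 6 controls. The log2 fold change was -1.32 ± 0.18 (SE), 2.49-fold lower (edgeR adjusted p = 0.00105), and it was -1.31 and -1.34 in experiments 1 and 2 alone. PRKCB was at 392.3, 399.8 and 368 against 181 and 169.6 in experiment 1, and at 276, 288 and 264 against 132, 201 and 103 in experiment 2. Again no knockout library reached a control, and the log2 fold change was -0.97 ± 0.16 (edgeR adjusted p = 0.00328). Within experiment 2 alone it was -0.86, with an edgeR adjusted p of 0.106.

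The cyclin CCND1 fell less. It was at 2798, 2787 and 2414 against 1349 and 2054 normalised CPM in experiment 1, and at 2069, 1909 and 2233 against 1334, 1395 and 1443 in experiment 2. Knockout and control libraries were separate within each experiment, although one of the knockout libraries of experiment 1 reached the level of the experiment 2 controls. The log2 fold change was -0.56 ± 0.12 (edgeR adjusted p = 0.0132), and it did not pass in either experiment alone (-0.65 and -0.52, edgeR adjusted p = 0.062 and 0.107).

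The neighbours STEAP1 and STEAP2 parted. STEAP2 was at 139, 146 and 160.3 against 285 and 217 normalised CPM in experiment 1, and at 94.7, 114 and 99.7 against 234, 233 and 232 in experiment 2. All 5 knockout libraries were above all 6 controls, with a log2 fold change of 1.04 ± 0.12 (edgeR adjusted p = 0.000432), the strongest increase among the 10. STEAP1 was at 92.5 to 109 in the controls and at 87.0 and 113 in the knockout of experiment 1, and at 139 to 167 against 113, 66.7 and 111 in experiment 2. Its log2 fold change was -0.32 ± 0.16 (edgeR adjusted p = 0.243), with -0.0026 in experiment 1 and -0.60 in experiment 2, neither of which passed.

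Among the transcription regulators, NR0B1 was at 85.9, 80.8 and 81.3 against 175 and 197 normalised CPM in experiment 1, and at 139.9, 122.8 and 107 against 198, 133 and 149 in experiment 2. The groups were far apart in experiment 1 and overlapped in experiment 2. The log2 fold change was 0.78 ± 0.16 (edgeR adjusted p = 0.00859), from 1.18 in experiment 1 and 0.42 in experiment 2, and the latter did not pass alone (edgeR adjusted p = 0.211). BCL11B was at 109, 101 and 95.3 against 162 and 102 in experiment 1, and at 50.6, 54.3 and 52.1 against 80.8, 92.7 and 78.5 in experiment 2. Its groups overlapped in experiment 1 and were separate in experiment 2, with a log2 fold change of 0.59 ± 0.13 (edgeR adjusted p = 0.0139). The BCL11B call was lost when the experiment term was dropped (log2 0.45, edgeR adjusted p = 0.349), with the WT clone as the only control (0.0664), or without the library numbered 5 of experiment 1 (0.0524) or replicate 1 of the WT clone in experiment 2 (0.0539).

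NKX2-2 was at 72.8, 75.2 and 63.6 against 80.6 and 127 normalised CPM in experiment 1. In experiment 2 it was at 33.5, 28.6 and 35.9 against 39.5, 72.4 and 25.3, with the 72.4 in the knockout library numbered 5. Its log2 fold change was 0.57 ± 0.24 (edgeR adjusted p = 0.148), with 0.56 and 0.55 in experiments 1 and 2 alone, neither of which passed. The log2 fold change was 0.42 ± 0.14 for LIPI (edgeR adjusted p = 0.0783) and -0.31 ± 0.22 for GLI1 (edgeR adjusted p = 0.406). The library numbered 5 of experiment 2 stood apart from its group, and without it 4048 genes were called in place of 1687. Among them was LIPI (log2 0.47, edgeR adjusted p = 0.0238), which made 7 of the 10 targets. Without replicate 1 of the WT clone in experiment 2, 1053 genes and 5 targets were called.

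In experiment 4 STAG2 was silenced by siRNA in A673 cells that carry no knockout. STAG2 itself went from 1068, 992 and 1090 deposited normalised values in the mock libraries to 144, 179.9 and 153 in siSTAG2, a log2 fold change of -2.72 ± 0.09 (limma on log2(value + 1), adjusted p = 4.01e-18). NR0B1 and BCL11B rose, PPP1R1A, STEAP1, PRKCB and CCND1 fell, and the other 4 did not pass. Of the 12060 genes tested, 9.54% were called higher and 11% lower, and the median log2 fold change was 0.02 over the targets and 0.01 over all genes.

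PPP1R1A was at 1222, 1152 and 1151 in the mock libraries and at 629, 594 and 575 after knockdown, a log2 fold change of -0.97 ± 0.07 (limma adjusted p = 1.82e-11). Its libraries were far apart, as in STAG2ko. PRKCB was at 3999, 3909 and 3676 against 3040, 3195 and 3261, a small decrease of -0.29 ± 0.06 on the log2 scale (limma adjusted p = 0.000506). CCND1 was at 12862, 12969 and 13154 against 11116, 11397 and 11502, a log2 fold change of -0.20 ± 0.05 (limma adjusted p = 0.0105). Mock and siSTAG2 libraries were separate for both genes. The CCND1 call was lost without siSTAG2 replicate 2 (limma adjusted p = 0.0549).

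STEAP1 was at 741, 769 and 861 in the mock libraries and at 456, 498 and 586 after knockdown (log2 -0.63 ± 0.08, limma adjusted p = 2.88e-06). STEAP2, whose level rose in the clones, was at 591, 506 and 507 against 573, 558 and 529, with a log2 fold change of 0.05 ± 0.08 (limma adjusted p = 0.688). The mock and siSTAG2 values of STEAP2 thus overlapped fully. NR0B1 was at 179, 151 and 204 against 249.6, 249 and 241 (0.48 ± 0.11, limma adjusted p = 0.00204), and BCL11B at 1673, 1604 and 1735 against 2324, 2274 and 2289 (0.46 ± 0.06, limma adjusted p = 9.62e-07). For both genes every knockdown library was above every mock library. NKX2-2 was at 226 to 271 against 241 to 247, LIPI at 83.9 to 102 against 89.0 to 124, and GLI1 at 130.6 to 133 against 130.7 to 143, and their log2 fold changes were 0.01, 0.15 and 0.03. The difference between knockdown and knockout was not tested, since the tables were made separately.

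**Figure D3:**
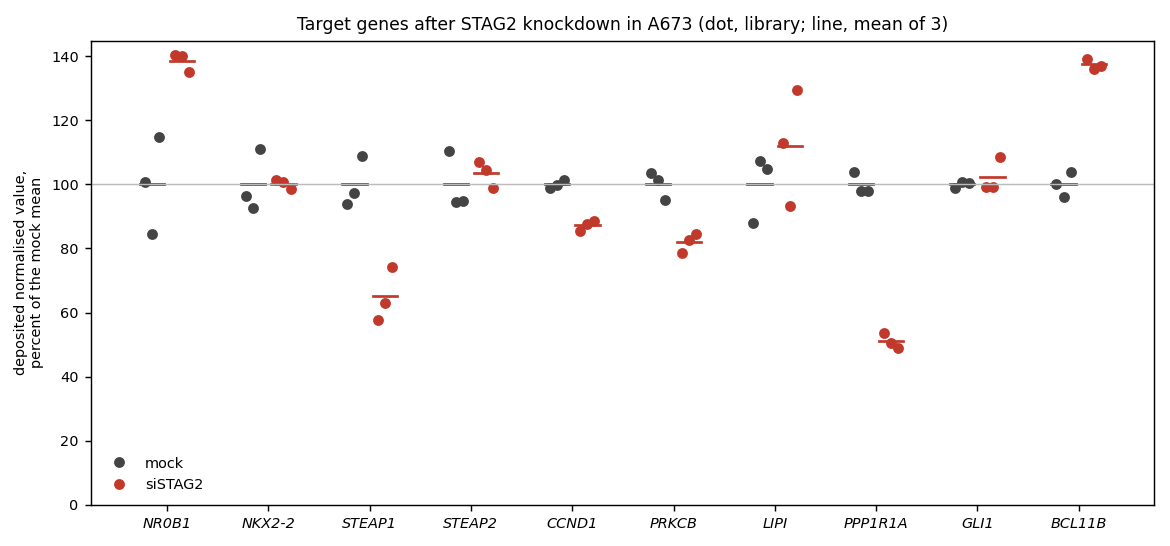
Deposited normalised value of each target as a percent of the mean of the 3 mock libraries (y axis, from 0); dots are libraries and lines the means of the mock and siSTAG2 groups. PPP1R1A and STEAP1 lie lowest after knockdown, NR0B1 and BCL11B lie above all mock libraries, and STEAP2, NKX2-2 and GLI1 stay near 100%.

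Knockout of STAG1, the subunit of the other cohesin variant, was compared with its own controls. LIPI rose and BCL11B and GLI1 fell, against 2.77% of 14373 genes called higher and 2.5% lower, and the remaining 7 did not pass. The median log2 fold change was -0.06 over the targets and 0.00 over all genes. LIPI was at 150.1 and 158 normalised CPM in the controls and at 247, 281 and 236 in STAG1ko (log2 0.72 ± 0.11, edgeR adjusted p = 0.0274). BCL11B was at 151 and 143 against 57.0, 64.4 and 69.8 (log2 -1.21 ± 0.10, edgeR adjusted p = 0.0181). GLI1 was at 37.1 and 29.7 against 18.6, 19.97 and 20.8 (log2 -0.76 ± 0.14, edgeR adjusted p = 0.0388). In all of these the knockout libraries were separate from the controls.

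NR0B1 was higher in every STAG1ko library (120, 132 and 257 normalised CPM) than in its controls (52.6 and 73.1), but the clones differed and the log2 fold change of 1.43 ± 0.37 did not pass (edgeR adjusted p = 0.082). It did pass with DESeq2 (adjusted p = 0.000345), and in edgeR with no filter on low counts (0.044) or without the library labelled STAG1ko 1 (0.0485). PPP1R1A was at 77.4 and 106 against 82.1, 49.6 and 100.3, and PRKCB at 418 and 525.8 against 424, 428 and 528, so that knockout and control libraries overlapped for both. The LIPI and BCL11B calls were lost without either of the 2 controls, and the GLI1 call in 4 of the 5 fits that left out 1 library (edgeR adjusted p = 0.0768 to 0.352). Without either control edgeR called 0 genes, with 1668 and 2206 genes at an unadjusted p under 0.05. Without the library labelled STAG1ko 1, 1310 genes and 4 targets were called, and without those numbered 5 and 7, 264 and 326 genes and 2 targets each.

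Whether the effects of STAG2ko and STAG1ko differ was tested directly in 1 model over 16 libraries. BCL11B and STEAP2 were called higher, against 2.36% of 14696 genes, and PRKCB lower, against 3.75%, in the STAG2ko effect relative to the STAG1ko effect. The difference of log2 fold changes was 1.76 ± 0.21 for BCL11B (edgeR adjusted p = 0.000249), which rose in one knockout and fell in the other. It was 0.86 ± 0.19 for STEAP2 (edgeR adjusted p = 0.0142) and -0.98 ± 0.26 for PRKCB (edgeR adjusted p = 0.0424). The PRKCB call rested on the full set: in 13 of the 16 fits that left out 1 library its edgeR adjusted p was 0.0501 to 0.294. The STEAP2 call was lost without the WT clone of experiment 3 (edgeR adjusted p = 0.113). LIPI and GLI1, called in STAG1ko only, differed by -0.34 ± 0.22 and 0.40 ± 0.34, and NR0B1 by -0.69 ± 0.38. None of these differences passed (edgeR adjusted p = 0.458, 0.618 and 0.355). PPP1R1A differed by -1.11 ± 0.37, which did not pass (edgeR adjusted p = 0.103). It passed with DESeq2 (adjusted p = 0.041), and in edgeR without the STAG1ko library numbered 5 (0.0457) or the STAG2ko library numbered 5 of experiment 1 (0.03).

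Loss of PRC2 was followed by an increase of 3 targets in both arms: NKX2-2, PRKCB and PPP1R1A. In EZH2ko, 12% of 15130 genes were called higher and 3.69% lower, and no target was called lower. In SUZ12ko, 14.7% were called higher and 5.87% lower, and LIPI was the only target called lower. The 2 arms share their 3 control libraries. The median log2 fold change was 0.30 over the targets in each arm, and 0.04 and 0.01 over all genes in EZH2ko and SUZ12ko.

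NKX2-2 was at 33.5, 28.6 and 35.9 normalised CPM in the controls, at 107, 94.4 and 106 in EZH2ko and at 149, 126 and 105.3 in SUZ12ko. The log2 fold changes were 1.74 ± 0.31 (edgeR adjusted p = 0.00309) and 2.03 ± 0.31 (edgeR adjusted p = 0.000986), 3.33- and 4.07-fold higher. All 6 libraries were well above the controls of their experiment, although the WT clone of experiment 3 was itself at 105.2. PRKCB went from 276, 288 and 264 to 599.5, 540.0 and 636 in EZH2ko and to 759.9, 728 and 704 in SUZ12ko, log2 fold changes of 1.19 ± 0.21 (edgeR adjusted p = 0.00285) and 1.48 ± 0.21 (edgeR adjusted p = 0.000664). PPP1R1A went from 104, 85.2 and 94.5 to 166, 149 and 151 and to 219.6, 186 and 138, log2 fold changes of 0.81 ± 0.16 (edgeR adjusted p = 0.00506) and 1.01 ± 0.16 (edgeR adjusted p = 0.00107). For both signalling genes the libraries of either PRC2 knockout lay above every control of every experiment.

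LIPI was at 169, 231 and 147.7 normalised CPM in the controls, at 63.9, 54.9 and 116 in SUZ12ko and at 128, 187 and 127 in EZH2ko. Its log2 fold change in SUZ12ko was -1.15 ± 0.29 (edgeR adjusted p = 0.0155), and the call was lost without any of 3 libraries (0.0642 to 0.0665): replicate 2 of the WT clone and the SUZ12ko libraries numbered 1 and 2. In EZH2ko it was -0.22 ± 0.28 (edgeR adjusted p = 0.631). NR0B1 in EZH2ko was at 159.7, 522 and 154 against 139.9, 122.8 and 107, so that its log2 fold change of 1.27 ± 0.41 (edgeR adjusted p = 0.0546) came largely from the library numbered 2, and it was 0.42 without it. In SUZ12ko NR0B1 was at 0.39 ± 0.40 (edgeR adjusted p = 0.517). STEAP1, STEAP2, CCND1, GLI1 and BCL11B had log2 fold changes between -0.32 and 0.35 in these arms, and none passed. A direct test of EZH2ko against SUZ12ko called 0 of the 10 targets by edgeR and by DESeq2, with 1 target, LIPI, at an unadjusted p under 0.05. Its log2 difference was 0.93 ± 0.29. Over all genes 0.00661% was called, which is EZH2 itself.

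**Figure D4:**
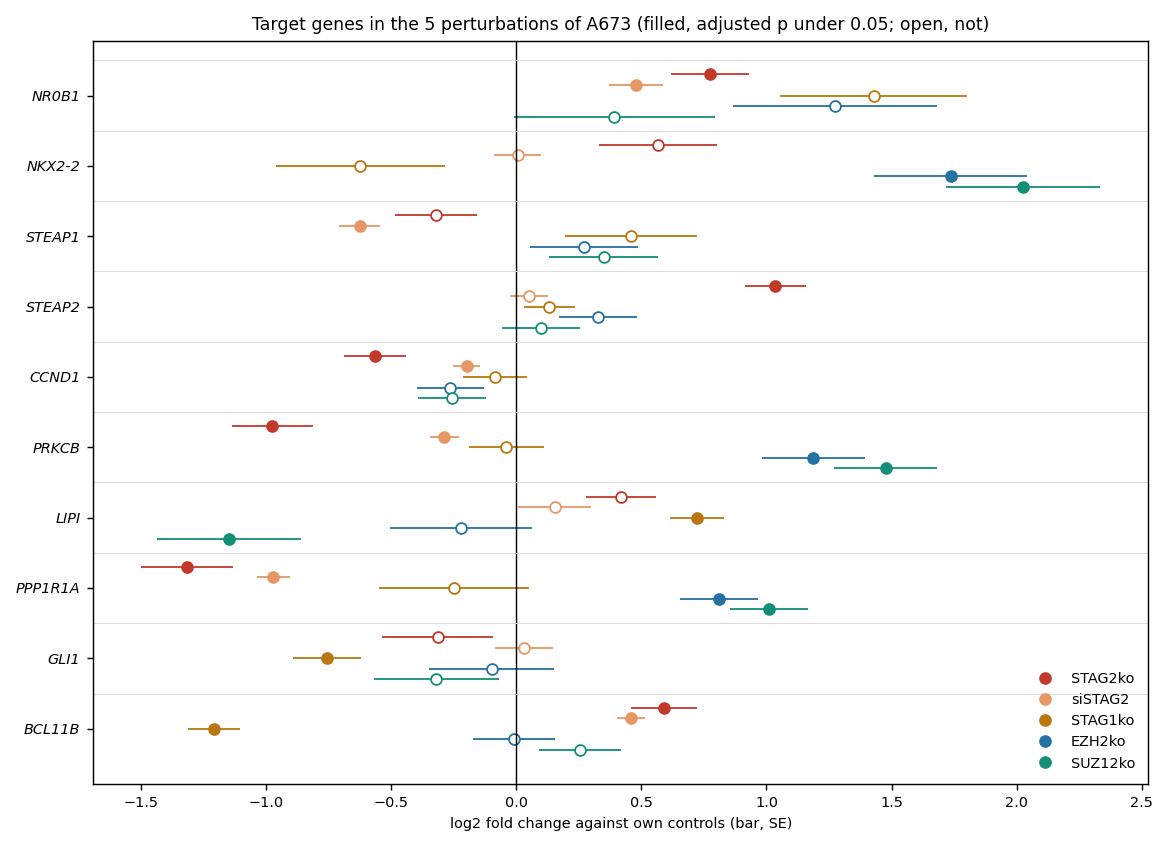
Log2 fold change (x axis) of each target against its own controls in STAG2ko, siSTAG2, STAG1ko, EZH2ko and SUZ12ko, with bars for 1 SE; filled symbols have an adjusted p under 0.05. PPP1R1A and PRKCB are below 0 with less STAG2 and above 0 without PRC2, and BCL11B is above 0 with less STAG2 and below 0 in STAG1ko.

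PPP1R1A and PRKCB fell without STAG2 and rose without PRC2, against the same controls in experiment 2, and so the knockouts were also contrasted directly with each other in the fit of all 12 libraries, a contrast added after the data were seen. In STAG2ko relative to EZH2ko, PPP1R1A was lower by a log2 difference of -2.14 ± 0.16 (edgeR adjusted p = 1.23e-05), PRKCB by -2.04 ± 0.21 (edgeR adjusted p = 8.46e-05), NKX2-2 by -1.18 ± 0.30 (edgeR adjusted p = 0.0171) and STEAP1 by -0.85 ± 0.22 (edgeR adjusted p = 0.0172). STEAP2 and BCL11B were higher, by 0.92 ± 0.16 (edgeR adjusted p = 0.002) and 0.76 ± 0.17 (edgeR adjusted p = 0.00811). Over all genes, 12.4% were called lower and 8.04% higher. In STAG2ko relative to SUZ12ko the same 4 genes were lower, PPP1R1A by -2.34 ± 0.16 and PRKCB by -2.33 ± 0.21, while LIPI (1.64 ± 0.29), STEAP2 (1.15 ± 0.16) and BCL11B (0.49 ± 0.16) were higher. In that contrast 14.5% of all genes were called lower and 11.2% higher, and the BCL11B call (edgeR adjusted p = 0.0455) was lost in 10 of the 12 fits that left out 1 library.

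The other lines allow the levels of the targets to be set beside those of A673. These are descriptions, as SK-N-MC and A4573 have 1 library in each arm. NR0B1 was at 52.6 to 139.9 normalised CPM in the 8 A673 controls, at 32.3 in SK-N-MC and at 253 in A4573 WT, both outside the A673 range on opposite sides. CCND1 (1909 to 3592 in A673) was at 1155 and 888, STEAP2 (94.7 to 237) at 70.4 and 73.9, LIPI (105.2 to 231) at 104.9 and 67.6, and GLI1 (19.9 to 37.1) at 6.76 and 4.75. These 4 genes were highest in A673, although LIPI in SK-N-MC was at the edge of its range. STEAP1 (92.5 to 167) and PPP1R1A (77.4 to 113) were highest in SK-N-MC, at 193 and 224, and lowest in A4573, at 73.7 and 57.9. PRKCB and BCL11B in SK-N-MC, at 357 and 96.3, lay within the A673 range, and both were lower in A4573, at 147 and 26.5. NKX2-2 lay within the A673 range in both lines, at 80.1 and 103. A4573 WT lacks STAG2, so line and STAG2 status cannot be told apart there. With STAG2 repaired, A4573 had 433 normalised CPM of NR0B1, 1602 of CCND1, 113 of PPP1R1A and 265 of PRKCB.

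**Figure D5:**
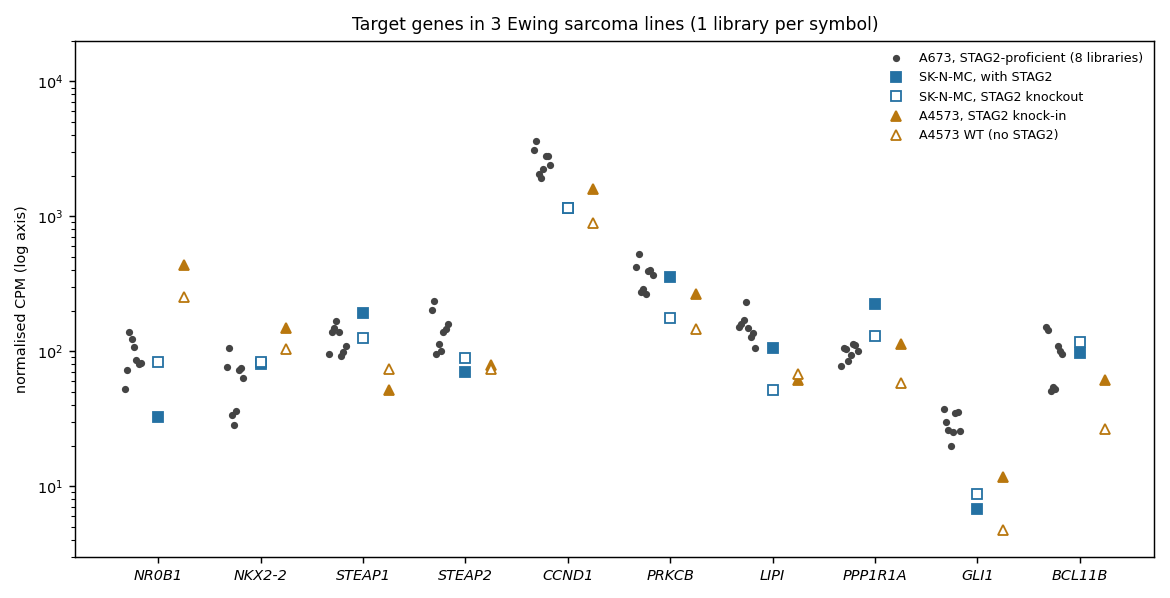
Normalised CPM (y axis, log scale) of each target in the 8 STAG2-proficient A673 libraries, in SK-N-MC with and without STAG2, and in A4573 with and without the STAG2 knock-in; each symbol is 1 library. NR0B1 is highest in A4573, GLI1 and CCND1 are highest in A673, and PPP1R1A and PRKCB are lower without STAG2 in both isogenic pairs.

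Within the 2 isogenic pairs, PPP1R1A and PRKCB were again lower in the library without STAG2. Ratios are given as log2 of the library without STAG2 over that with it, with exact 95% binomial intervals that cover counting error only and say nothing of replicates. PPP1R1A had 4075 reads in SK-N-MC STAG2ko and 7689 in SK-N-MC WT (log2 -0.81, -0.86 to -0.75), and 1841 in A4573 WT and 3620 in the KI (-0.91, -0.997 to -0.83). PRKCB had 5572 and 12236 reads in SK-N-MC (-1.03, -1.07 to -0.98) and 4687 and 8476 in A4573 (-0.79, -0.85 to -0.74). CCND1, given below, was also under 0 in both pairs, though barely in SK-N-MC. The median log2 ratio over the 10 targets was 0.005 in SK-N-MC and -0.76 in A4573, against -0.01 and 0.00 over all genes.

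For the rest the lines differed. NR0B1 had 2630 reads without and 1109 with STAG2 in SK-N-MC (1.35, 1.25 to 1.46), but 8034 and 13855 in A4573 (-0.73, -0.77 to -0.69). CCND1 had 36055 and 39627 reads in SK-N-MC (-0.03, -0.05 to -0.01) and 28230 and 51316 in A4573 (-0.80, -0.82 to -0.78). STEAP2 was at 0.33 in SK-N-MC and -0.04 in A4573, STEAP1 at -0.63 and 0.57, and LIPI at -1.05 and 0.19. BCL11B was at 0.25 and -1.15, NKX2-2 at 0.04 and -0.48, and GLI1, with 151 to 373 reads in a library, at 0.35 (0.10 to 0.61) and -1.23 (-1.53 to -0.97). Past 2-fold, SK-N-MC without STAG2 held 1 target higher (NR0B1) and 2 lower (PRKCB and LIPI), against 10.2% of 16413 genes higher and 11.4% lower. A4573 without STAG2 held none higher and 2 lower (GLI1 and BCL11B), against 7.76% of 16124 genes higher and 14.1% lower. The label checks moved in the same pairs. STAG2 was at log2 -0.67 in SK-N-MC and -1.35 in A4573, FLI1 at 0.23 and -0.49, and EWSR1 at 0.11 and 0.58. FLI1, part of the fusion transcript, was thus lower in the A4573 library in which most targets were lower, and the part of the fusion's level in these ratios was not tested.

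Beside the 10 targets, 30 other genes described as activated by EWS::FLI1 moved in both directions in STAG2ko, with 9 called higher, 6 lower and 15 not called (median log2 0.03), against 6.67% and 5.76% of all genes. KIT, a receptor tyrosine kinase, had a log2 fold change of 1.82 ± 0.27 and GSTM4, a glutathione transferase, of 1.36 ± 0.33, whereas the adhesion receptor ADGRG2 was at -5.95 ± 1.07 and the Wnt antagonist DKK2 at -2.58 ± 0.56. After knockdown 6 were higher, 16 lower and 8 not called (median log2 -0.31), against 9.54% and 11% of all genes, with ADGRG2 at -2.03 ± 0.09. In STAG1ko 2 were higher and 1 lower, against 2.77% and 2.5% of all genes. In EZH2ko 7 were higher and 3 lower (EZH2 itself among them), against 12% and 3.69%, and in SUZ12ko 8 and 4, against 14.7% and 5.87%. Of 11 genes described as repressed by EWS::FLI1, 0 were called higher and 4 lower in STAG2ko by edgeR, against the same 6.67% and 5.76% of all genes, including the matrix protein TNC at -2.92 ± 0.24 (adjusted p = 5.55e-05). In STAG1ko 3 were higher and 0 lower, against 2.77% and 2.5%, with the matricellular protein CCN2 at 1.98 ± 0.38 (edgeR adjusted p = 0.0451). In EZH2ko 1 was higher and 3 lower, against 12% and 3.69%, and in SUZ12ko 1 and 4, against 14.7% and 5.87%. After knockdown 0 of 8 tested were higher and 3 lower, against 9.54% and 11%. TNC was also among the lower genes in EZH2ko, in SUZ12ko and after knockdown, but was not called in STAG1ko.

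Genes around CCND1 and GLI1 were described in the same way. Of 11 measured partners of cyclin D, 0 were called by edgeR in STAG2ko, against 6.67% of all genes called higher and 5.76% lower. An unadjusted edgeR p under 0.05 was seen for 0 of the 11, against 3607 of all 13574 genes tested. In EZH2ko 2 were called higher and 0 lower, against 12% and 3.69% of all genes. In SUZ12ko 1 was called higher and 1 lower (CDK6), against 14.7% and 5.87%. The CDK inhibitor CDKN1A was higher in EZH2ko (2.86 ± 0.43, edgeR adjusted p = 0.00135) and SUZ12ko (2.35 ± 0.42, edgeR adjusted p = 0.00251), and also in STAG1ko (1.999 ± 0.37, edgeR adjusted p = 0.0405). The paralogue CCND2 was nearly silent in the controls of experiment 2, with 0, 1 and 3 reads, and had 674 to 1352 reads in EZH2ko and 991 to 1408 in SUZ12ko, whereas CCND1 itself did not pass in either. In the same way BCL11A, the paralogue of BCL11B, went from 0, 0 and 1 reads to 23 to 49 and to 80 to 140. Of the Hedgehog genes around GLI1, GAS1, a co-receptor, was lower in STAG2ko (-1.29 ± 0.20, edgeR adjusted p = 0.002) and after knockdown (-0.89 ± 0.14, limma adjusted p = 2.8e-05), and GLI2 was lower in EZH2ko (-1.41 ± 0.33, edgeR adjusted p = 0.0134) and SUZ12ko (-1.63 ± 0.33, edgeR adjusted p = 0.00485). GAS1 was the only one of 10 called in STAG2ko, against 6.67% of all genes called higher and 5.76% lower. Of the same 10, 1 was higher (BOC) and 3 lower in EZH2ko, against 12% and 3.69% of all genes. In SUZ12ko 1 was higher (BOC) and 4 lower, against 14.7% and 5.87%. Of the paralogues of the 10 targets, 3 of 13 tested were called higher in STAG2ko and none lower, against 6.67% and 5.76% of all genes, with PRKCE at 3.004 ± 0.54 (edgeR adjusted p = 0.00455) and CCND3 at 1.23 ± 0.30 (edgeR adjusted p = 0.0226). PRKCE had few reads: 5 to 11 in the controls of experiments 1 and 2, and 20, 70, 46, 29 and 216 in STAG2ko. It was also called higher in EZH2ko and SUZ12ko.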

How the data were processed

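By the authors' description, total RNA was converted to oligo(dT)-primed cDNA and non-directional libraries. Single-end reads were aligned by the authors to hg38 with TopHat2 (2.0.0), which called Bowtie (version 0.12.7) with SAMtools (version 0.1.16), according to the submitters' processing notes. The counting program is not given in the sources used here. The authors deposited raw counts per gene symbol for 26 libraries and, for the 6 knockdown libraries, a signal that is normalised counts per Ensembl gene. Whole reads were recovered from 100% of the deposited knockdown values (within 0.01 read), and 56104 of 60199 Ensembl genes matched a symbol. The members and gene lists were chosen with earlier results of these data known.

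Counts were tested with edgeR 4.0.16 (filterByExpr, TMM, quasi-likelihood test) and knockdown values with limma 3.58.1 (trend) on log2(value + 1) where a gene averaged 10 or more. The Benjamini-Hochberg adjustment covered all genes tested, and a call is an adjusted p under 0.05. SE of an edgeR fold change is its size over the square root of F. STAG2ko was fitted with the experiment as a term, all 12 libraries of experiment 2 shared a fit, and the STAG2ko and STAG1ko effects were compared over 16 libraries. Isogenic pairs had no test: TMM over 4 libraries, a prior count of 2 and at least 10 reads. Scripts were tested on simulated data. DESeq2 1.42.0, other scalings, filters and left-out libraries were alternatives. The same 10 targets were named in every comparison, and in each gene list up to 4 called genes with the largest folds, of which some are given here. No source says that libraries of a group came from separate cultures of a clone, so p-values measure the spread between these libraries. Replicates a and b of the WT clone in experiment 1 differed by little more than sampling noise (mean chi-square per gene 1.33, against 9.41 to 140 for other groups). They entered the STAG2ko fit as 2 controls and were also run as 1. Summed into 1 library, they gave 1154 genes called in STAG2ko in place of 1687, with 6 targets called in both fits. The numbers 5 and 24 (STAG2ko, experiment 1) and 1, 5 and 7 (STAG1ko) are those of the deposited columns and could not be matched to clone labels. Number 5 occurs in both STAG2ko experiments and may be 1 clone. The repeats near PRKCB are not reported here.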

Additional observations from a re-analysis of the deposited data

Results flagged for a closer look

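In groups of 4 to 10 libraries, a library far from the rest was seen in 3 of the 20 groups examined, where chance flags about 1 in 20. Among the 5 STAG2ko libraries of experiments 1 and 2 these were STEAP2 and BCL11B in the library numbered 5 of experiment 1, at 285 and 162 normalised CPM, and CCND1 in the library numbered 24 of experiment 1, at 2054. The groups pool 2 experiments whose controls also differ.

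In A673, 3 targets responded differently to loss of STAG2 and of STAG1 by the direct test of the difference: BCL11B (1.76 on the log2 scale), STEAP2 (0.86) and PRKCB (-0.98).

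Between the isogenic pairs, 5 targets had ratios of opposite sign each with a counting interval that excludes 0. They were NR0B1 (log2 1.35 in SK-N-MC, -0.73 in A4573), STEAP1 (-0.63 and 0.57), LIPI (-1.05 and 0.19), GLI1 (0.35 and -1.23) and BCL11B (0.25 and -1.15). With 1 library in each arm, the difference between the lines was not tested.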

How the results depend on the processing

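Most values kept their direction and side of the threshold, and the main exceptions follow. Where no construction of the alternative (fewer libraries) is named the cause was not tested. For STAG2ko, 1687 genes were called, 3663 in experiment 1 alone and 494 in experiment 2 alone, where 3 targets in place of 6 were called. For STAG1ko, 757 genes became 1914 with DESeq2, and with the WT clone as the only control 0 genes and 0 targets were called. For EZH2ko, 2377 genes became 1441 with the WT clone as the only control, and DESeq2 called 5 targets in place of 3, adding NR0B1 and CCND1. DESeq2 also called LIPI in STAG2ko (adjusted p = 0.0347), NR0B1 in STAG1ko (0.000345) and the PPP1R1A difference between STAG2ko and STAG1ko (0.041). With no filter on low counts edgeR called NR0B1 in STAG1ko (adjusted p = 0.044) and EZH2ko (0.0448). Calls gained without 1 library were NKX2-2 in STAG2ko (edgeR adjusted p = 0.0466, without experiment 2 library 2), LIPI in STAG2ko (0.0238), STEAP2 in EZH2ko (0.0438, without EZH2ko 3), NR0B1 in STAG1ko (0.0485) and, in 3 fits, in EZH2ko (0.027 to 0.04), and the PPP1R1A difference in 2 fits (0.03 and 0.0457).

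Leaving out 1 library at a time gave 1053 to 4048 genes and 5 to 7 targets for STAG2ko, 0 to 1310 genes and 0 to 4 targets for STAG1ko, 1169 to 3885 genes and 3 to 5 targets for EZH2ko, 1874 to 4797 genes and 3 to 4 targets for SUZ12ko, 1 to 3 targets for the difference between STAG2ko and STAG1ko, 5 to 7 and 6 to 7 targets for STAG2ko against EZH2ko and SUZ12ko, and 1750 to 2533 genes and 5 to 6 targets for siSTAG2. The extremes in experiment 2 came without STAG2ko 5 (highest) and without replicate 1 of the WT clone (lowest). The sign of uncalled targets changed in some of these fits: in STAG1ko CCND1 ranged from -0.20 to 0.0350, PRKCB from -0.20 to 0.15 and PPP1R1A from -0.48 to 0.0048, in EZH2ko GLI1 from -0.27 to 0.0080 and BCL11B from -0.13 to 0.16, between EZH2ko and SUZ12ko STEAP1 from -0.20 to 0.0819 and CCND1 from -0.0903 to 0.0472, and in siSTAG2 NKX2-2 from -0.0462 to 0.0828 and GLI1 from -0.0118 to 0.0523. NKX2-2 in siSTAG2 was also at -0.0003 with edgeR on the recovered reads, a test that called 2503 genes and the same number of targets, 6.

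The mock and siSTAG2 libraries share only numbers: same-numbered libraries did not deviate together (r of 0.026, 0.037 and 0.004), and a replicate block gave 2881 genes in place of 2476, with 6 targets. In A4573, scaling by library size alone shifted 5 ratios beyond their counting interval, none in sign. With plain CPM PRKCB was highest in SK-N-MC rather than A673. The A673 arms have 2 or 3 clones each and the isogenic pairs 1 library in each arm.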
